A study of Mus musculus with 8 samples.

Results

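Marker genes of liver cell types other than the hepatic stellate cell were read in RNA sequencing libraries of isolated stellate cells (the liver's vitamin A-storing mesenchyme) as a measure of how much RNA of other cells these libraries hold. The list has 38 genes, chosen by name as markers of hepatocytes, macrophages, dendritic cells, endothelium, cholangiocytes, lymphocytes, neutrophils, mesothelium and portal fibroblasts. Of these, 4 lie among the 1933 gene rows shared by the 8 count tables, which were analysed here. They are Serpinc1 for hepatocytes, Pkhd1 for cholangiocytes, Batf3 for dendritic cells and Cd34 for portal fibroblasts. The other 34 were not analysed here, so the 9 macrophage genes, the 8 endothelial genes, and the lymphocyte, neutrophil and mesothelial genes of the list gave no value.

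The libraries came, per the labels, from male mice that received a Western diet with 21% fat from 4 weeks of age for 20 weeks, a model of metabolic dysfunction-associated steatohepatitis (MASH). The first group is labelled as an AREL1 knockout in stellate cells (AREL1HSC-KO, written KO), and the floxed group (AREL1fl/fl, or fl/fl) served as the controls. Each group had 4 libraries. AREL1 is an E3 ubiquitin ligase. The labels do not name the Cre driver, and Arel1 itself was not analysed. Nothing in them ties a library to a single mouse, and a p-value here therefore reflects how libraries differ, a spread that may be technical. The livers were, per the labels' protocols, dissociated enzymatically (pronase, collagenase), hepatocytes were removed by slow centrifugation, and an OptiPrep gradient yielded the stellate cells, whose purity was judged under the microscope.

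A liver cell suspension holds hepatocytes, sinusoidal endothelium, resident macrophages, lymphocytes and bile duct cells beside the stellate cells. Each type makes some transcripts in large amounts that stellate cells make little of, which is why such transcripts serve as a purity check on a gradient fraction. Portal fibroblasts are the other collagen-producing mesenchymal cell of the liver and share many transcripts with activated stellate cells.

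The reads assigned to genes ranged from 17619387 to 19663030 per control library and from 19271004 to 25165289 per KO library. Levels are given as CPM, the count per this total (in units of 1e6 reads) after TMM scaling. At this depth a count of 0 allows up to 0.117 to 0.173 CPM in 1 library (3 reads), and such limits and the Poisson intervals below cover counting error only. The analysed genes that have a symbol all lie on chromosome 1, and the shared rows held 3.20% to 3.28% of the reads assigned to genes. The TMM factors rest on the 420 genes tested alone. They ran from 0.980 to 0.996 in the controls and from 1.004 to 1.020 in KO. Of 20 listed genes of stellate cells and mesenchyme, 3 were in the shared rows, and these are general mesenchymal genes. Of these, the controls had Col5a2 and Col3a1, both collagen genes, at 673 ± 6.82 and 485.2 ± 16.3 CPM, and Prrx1, a mesenchymal transcription factor, at 32.8 ± 2.25 CPM (SD, n = 4). Rgs5, a gene of pericytes and stellate cells, was in the tables of 3 controls alone, with 7 to 12 reads (0.401 to 0.684 CPM), because the other 5 tables as used here end before its row, so nothing is known of it in KO. Stellate markers such as Lrat and Reln were not analysed here, so the labelled cell type could not be checked on them.

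In these libraries the hepatocyte gene Serpinc1 had 6 to 17 either-strand reads per library, the cholangiocyte gene Pkhd1 had 1 read in all, the dendritic cell gene Batf3 stood near 3 CPM, and the portal fibroblast gene Cd34 lay between 79.4 and 87.3 CPM. Cd34 and Batf3 passed the filter on low counts and were tested, and neither passed the threshold, which does not show that the genotypes were alike in them. That is 0 of 2 members at adjusted p under 0.05 (edgeR quasi-likelihood test), where 37.6% of all 420 genes tested were called (18.3%, or 77, higher in KO and 19.3%, or 81, lower). The count was also 0 at an unadjusted p under 0.05 (45% of all genes), and 0 with DESeq2 (31.2% of all genes). Serpinc1 and Pkhd1 did not pass the filter and are described by their reads. In bulk RNA, fewer cells of a type and less RNA per cell cannot be told apart, and no library of pure hepatocytes or other cells was analysed, so the levels are not converted into shares of cells.

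**Figure D1:**
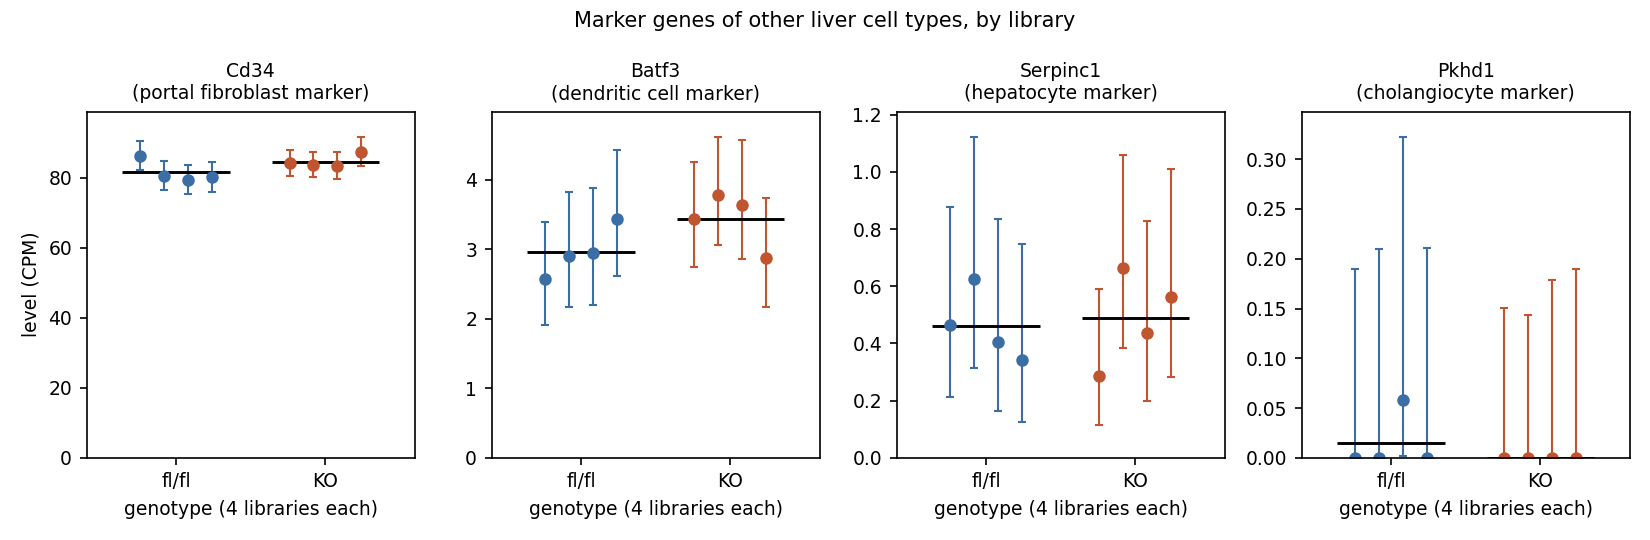
Levels of Cd34, Batf3, Serpinc1 and Pkhd1 in CPM (vertical axis, from 0, a scale for each gene) in the 4 fl/fl and 4 KO libraries; points are libraries, bars exact 95% Poisson intervals of the count and black lines group means. Cd34 lies between 79.4 and 87.3 CPM in all 8 libraries, and the groups overlap in each gene.

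Serpinc1 encodes antithrombin, a clotting inhibitor secreted by hepatocytes. The control libraries held 9, 11, 7 and 6 reads of it (replicates 1 to 4), or 0.463, 0.627, 0.405 and 0.343 CPM. The KO libraries held 7, 17, 9 and 11 reads, or 0.286, 0.662, 0.437 and 0.564 CPM. The lowest and the highest library were both KO, and all control values lay between them. The controls averaged 0.460 ± 0.122 CPM and KO 0.487 ± 0.163 CPM (SD, n = 4), a difference of 0.0279 CPM (two-sided exact permutation p = 0.8 over 70 assignments, with 0.0286 the smallest possible). This was the 1 member tested in that way, so no adjustment was needed. The summed reads, 33 in the controls and 44 in KO, give a ratio of 1.06 with an exact 95% interval of 0.660 to 1.72 from counting error, an interval that includes a change of 1.5-fold. The spread between libraries, 26.5% of the mean in the controls and 33.4% in KO, stood beside 34.8% and 30.2% from counting alone.

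The Serpinc1 reads are uncertain for another reason. In GENCODE M21 its exons share 2942 of 8546 bases (34.4%) with Zbtb37, a zinc finger gene on the other strand. The tables give, beside the either-strand count used here, a count for each strand, and reads fell on both strands about equally (reverse-to-forward ratio 0.985 to 1.02), although the labels name a stranded mRNA kit. A read on an exon of both genes is dropped as ambiguous from the either-strand count and enters the strand columns. The strand columns together held 1695 Serpinc1 reads over the 8 libraries, against 77 in the either-strand column. The further 1618 reads (95.5%) ran from 163 to 257 per library. For Zbtb37 the strand columns held 1665 reads more than its either-strand count of 2575, between 165 and 262 per library, and in each library this number came within 11 reads of the Serpinc1 number. Read density was 13.7 reads per kilobase on the exon bases that Serpinc1 has alone, 550 on the shared bases and 162 on those that Zbtb37 has alone. Which of the genes the shared reads came from cannot be told apart without strand.

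The choice of column therefore sets the Serpinc1 level. The strand columns count the shared reads for both genes, so their Serpinc1 level cannot be read as hepatocyte RNA alone. With both strand columns summed, Serpinc1 averaged 11.4 ± 0.881 CPM over the controls and 9.67 ± 0.802 CPM over KO (SD, n = 4), and it passed the filter. It was then lower in KO, by 15.0% (log2 fold change -0.23, SE 0.084, edgeR adjusted p = 0.0274), where 34.4% of the 474 genes tested in that way were called. With the reverse-strand column alone it was lower as well (log2 fold change -0.32, SE 0.12, edgeR adjusted p = 0.0238, 30.1% of all genes called), and with the forward-strand column it was not called (log2 fold change -0.14, SE 0.13, edgeR adjusted p = 0.447). On the scale of the summed CPM the control libraries lay between 10.8 and 12.7 and the KO libraries between 8.93 and 10.7, without overlap, which holds for 30.2% of those 474 genes. In the either-strand counts Zbtb37 itself fell by 10.8%, with 16.9 ± 0.605 CPM in the controls and 15.0 ± 0.608 in KO (SD, n = 4). Its log2 fold change was -0.17 (SE 0.062, edgeR adjusted p = 0.0367). The part of Zbtb37 in the fall of the summed Serpinc1 counts was not tested.

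**Figure D2:**
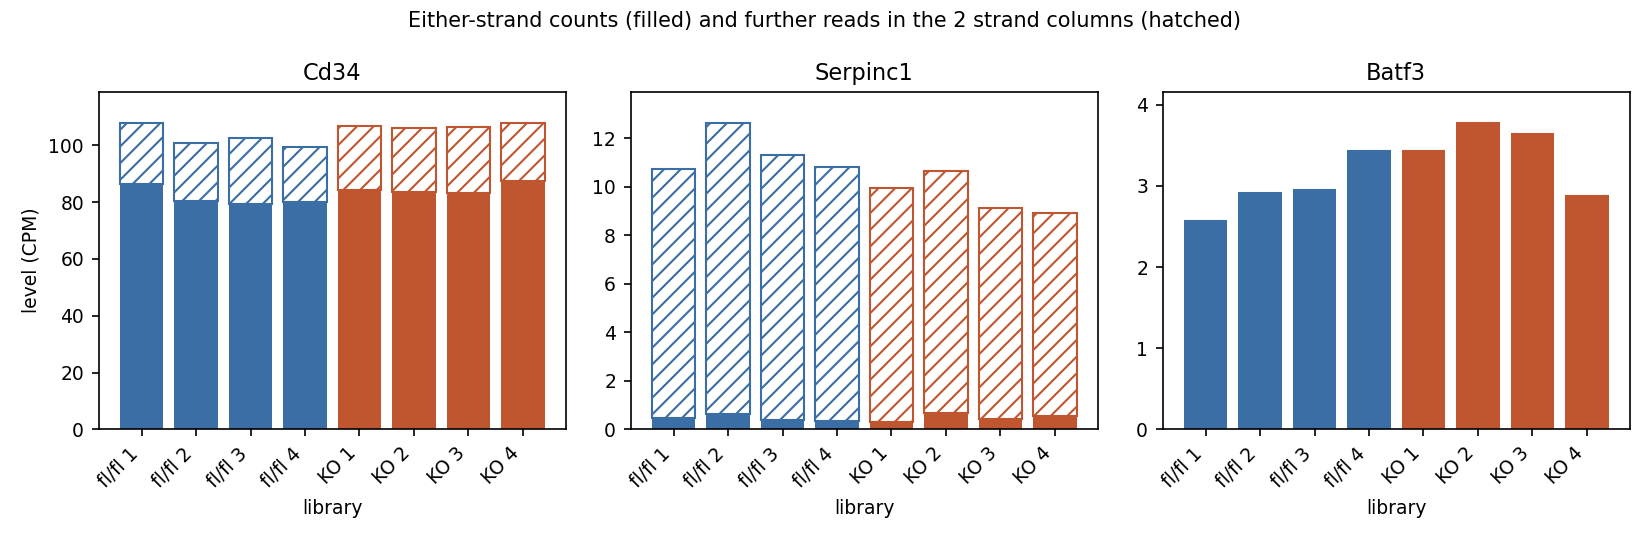
Levels in CPM (vertical axis, from 0, a scale for each gene) of Cd34, Serpinc1 and Batf3 in each library; filled bars are the either-strand counts and hatched bars the further reads of the forward and reverse columns. The hatched part is 95.5% of the Serpinc1 reads and 20.7% of the Cd34 reads, and Batf3 has no such part.

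Pkhd1 encodes fibrocystin, a protein of the cilia of bile duct and kidney tubule cells. A single read was counted over the 8 libraries, in control replicate 3 (0.0578 CPM). The other 7 libraries had 0 reads, and the 0 reads over the 4 KO libraries allow up to 0.0333 CPM (3 reads of 90204487). The strand columns added no read, although 208 exon bases overlap a gene of the other strand. Pkhd1 was not tested in the main fit. Without the filter on low counts its log2 fold change was -1.70 (SE 1.51, edgeR adjusted p = 0.543). That value rests on 1 read and tells nothing of the genotypes.

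Batf3 is a transcription factor needed by the dendritic cells that present antigen to cytotoxic T cells, and activated T cells make it as well. The control libraries held 50, 51, 51 and 60 reads, or 2.57, 2.91, 2.95 and 3.43 CPM. The KO libraries held 84, 97, 75 and 56 reads, or 3.44, 3.78, 3.64 and 2.87 CPM. KO replicates 1 to 3 lay above all control libraries, the first of them by a narrow margin, and KO replicate 4 lay among the control libraries. The means were 2.97 ± 0.355 and 3.43 ± 0.399 CPM (SD, n = 4). The fitted difference was 16.7% with a 95% interval of -4.99% to 43.3% (log2 fold change 0.22, SE 0.14, edgeR adjusted p = 0.240). The spread between libraries, 11.96% of the mean in the controls and 11.6% in KO, was about what counting gives (13.7% and 11.3%). No exon of another gene overlaps Batf3 in GENCODE M21, and the strand columns summed to its either-strand count in all 8 libraries. The log2 fold change was 0.069 in the forward-strand column and 0.39 in the reverse-strand column, neither past the threshold (adjusted p = 0.832 and 0.171).

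The Batf3 level was set beside 43 further leukocyte genes, of which 11 were analysed. They are lymphocyte and pan-leukocyte genes, with no marker of macrophages, neutrophils or dendritic cells among them. Those 11 together had 85 reads over the 8 libraries, against 524 for Batf3. Their summed level was 0.412 to 0.801 CPM per library in the controls and 0.351 to 0.821 CPM in KO. The highest was Dock10, a Rac and Cdc42 exchange factor of leukocytes (0.225 ± 0.0850 CPM over the controls, 0.160 ± 0.0652 over KO, SD, n = 4). Among T cell genes, Cd28, a costimulatory receptor, had 17 reads and Fasl, the death ligand, 16, while Ctla4, an inhibitory receptor, and Xcl1, a chemokine, had 0. The chemokine receptor gene Cxcr4 had 4 reads, all in KO libraries. On a scale that allows comparison between genes, CPM per kilobase of exon (RPKM, with GENCODE M21 lengths), Batf3 stood at 2.00 and the highest of the 11, Fasl, at 0.0535. None of the 11 passed the filter, so their difference between genotypes was not tested.

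Cd34 encodes a sialomucin of the cell surface that is known from blood-forming progenitors, vascular endothelium and fibroblasts around the portal tract. The control libraries held 1676, 1413, 1373 and 1401 reads, or 86.2, 80.5, 79.4 and 80.2 CPM. The KO libraries held 2057, 2145, 1718 and 1702 reads, or 84.1, 83.6, 83.4 and 87.3 CPM. Replicate 1 of the controls lay above KO replicates 1 to 3, and the other control libraries lay below all KO libraries, so the groups overlapped through that 1 library. The means were 81.6 ± 3.14 and 84.6 ± 1.83 CPM (SD, n = 4). The fitted difference was 3.55% with a 95% interval of -1.21% to 8.54% (log2 fold change 0.050, SE 0.033, edgeR adjusted p = 0.245). In KO the spread between libraries (2.16% of the mean) was close to what counting gives (2.29%), and in the controls it was larger (3.85% against 2.61%). At 11.4 RPKM, Cd34 was exceeded by 115 of the 627 protein-coding genes in the rows. Col5a2 stood at 65.8 RPKM, Col3a1 at 47.1, Prrx1 at 2.68, and Batf3 and Serpinc1 at 2.00 and 0.0554. The Serpinc1 figure divides by all 8546 exon bases, although the either-strand count drops reads on the 2942 bases shared with Zbtb37. It therefore understates the level per countable base.

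The call for Cd34 moved with the scaling, as the median of all genes did. Under upper-quartile scaling its log2 fold change was 0.10 and passed the threshold (edgeR adjusted p = 0.0213, 41% of all genes called), and with library totals alone it was 0.083 (adjusted p = 0.0540). Over the 20 alternatives the adjusted p ran from 0.0213 to 0.481, and the value was higher in KO in each. Without control replicate 1 it was 0.079 (adjusted p = 0.0845). Upper-quartile scaling also moved the split of all called genes, to 120 higher and 52 lower in KO, and library totals alone gave 100 higher and 65 lower. The median over all genes, as a log2 fold change, was 0.0034 in TMM scaling, 0.055 in upper-quartile scaling and 0.036 with library totals alone. Relative to it Cd34 stood 0.047 higher in KO under each of the 3 scalings.

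Cd34 too has reads that the either-strand column leaves out. Its exons share 148 of 7290 bases with the antisense gene Gm16897 in GENCODE M21, which may not be the annotation the authors used. By these models the reads came to 1888 per kilobase on the exon bases that Cd34 has alone and 23804 per kilobase on the shared bases. The strand columns together held 3523 more Cd34 reads than the either-strand column, 20.7% of the 17008, or 337 to 576 per library. For Gm16897 the further reads numbered 3525, with the same number as for Cd34 in 6 of 8 libraries and a gap of 1 in the other 2, against 78 reads in its either-strand column. With the strand columns summed, Cd34 averaged 103 ± 3.76 CPM over the controls and 107 ± 0.736 CPM over KO (SD, n = 4). Its log2 fold change was then 0.047 (SE 0.031, edgeR adjusted p = 0.245), and it was again not called.

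**Figure D3:**
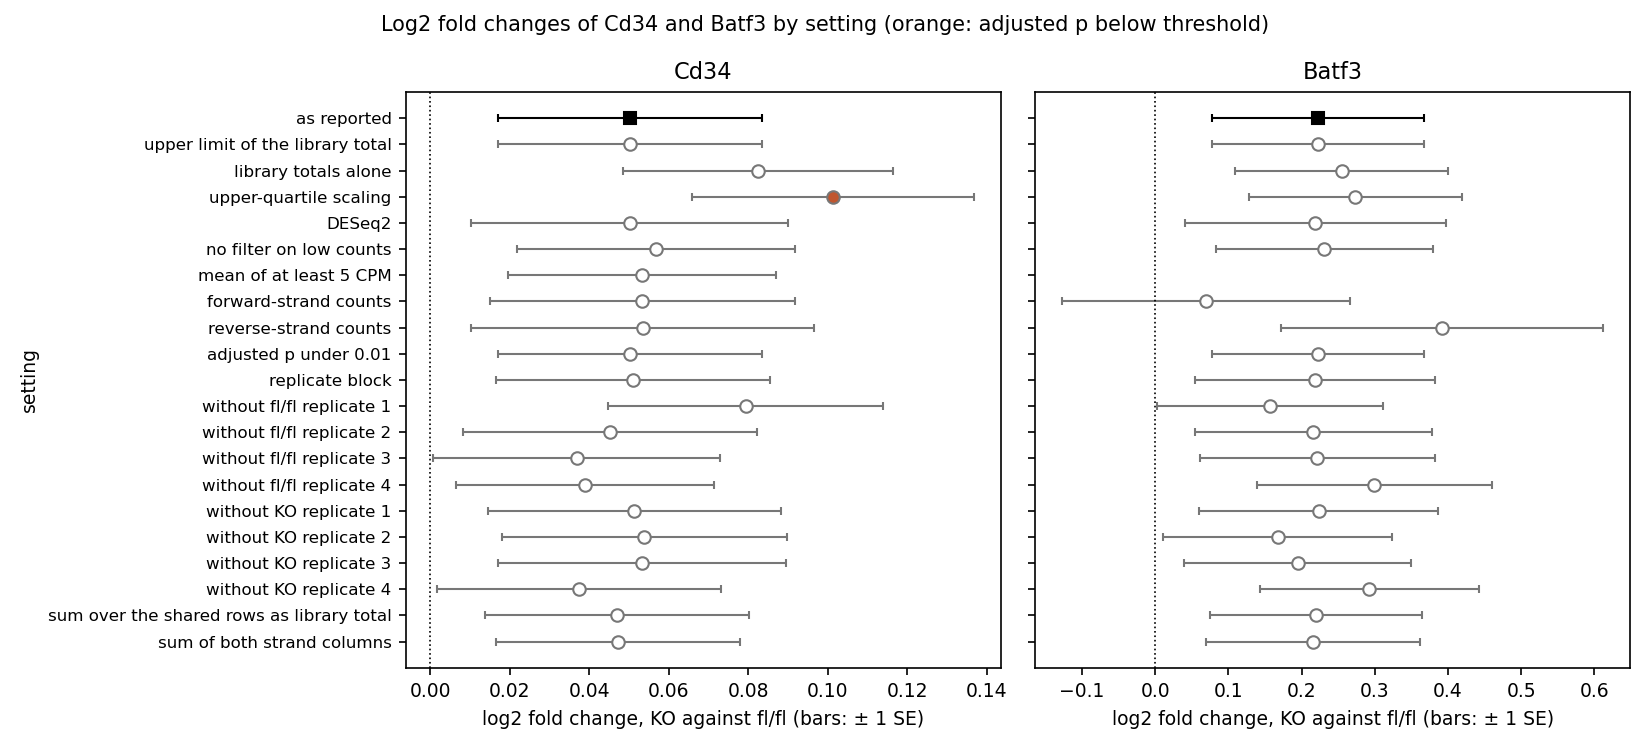
Log2 fold changes of Cd34 and Batf3 in KO against the fl/fl controls (horizontal axis, a scale for each gene) under each setting (vertical axis); points are estimates and bars ± 1 SE, and orange marks an adjusted p below the threshold. Every estimate lies above 0, Cd34 passes in upper-quartile scaling, and Batf3 has no value at a mean of at least 5 CPM, which it does not reach.

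In the either-strand counts Cd34 was the sole member above 5 CPM, so the other markers of the cells that carry it were examined. The 13 endothelial genes listed (8 members and 5 further genes) and the mesothelial genes were not in the shared rows, so an endothelial source of Cd34 was not tested. Of 4 further portal fibroblast genes, 2 were in the rows. Dpt, the matrix protein dermatopontin, fell by 63.9%. It averaged 18.7 ± 2.78 CPM over the controls, 14.7 to 20.6 by library, and 6.76 ± 0.0922 over KO, 6.67 to 6.86 (SD, n = 4). The log2 fold change was -1.47 (SE 0.094, edgeR adjusted p = 4.21e-11). Ackr3, a scavenger receptor for CXCL12, had 4 reads in all. Per length, the controls had 10.9 RPKM of Dpt and 11.2 of Cd34, and KO had 3.92 and 11.6. The difference between the fold changes of these genes was not tested.

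Of 77 further markers of other cell types, 23 were in the shared rows, and 3 of them were tested: Dpt, Aox1 and Lamb3. Aox1, an aldehyde oxidase abundant in hepatocytes and also made by other cells, fell by 77.3%, with 8.21 ± 1.64 CPM in the controls and 1.83 ± 0.291 in KO (edgeR adjusted p = 3.23e-10, n = 4 per group). The other 7 hepatocyte genes of the 8 in the rows had 35 reads in all, with a summed level of 0.154 to 0.401 CPM per library in the controls and 0.146 to 0.205 CPM in KO. Mtarc1, a molybdenum enzyme of the outer mitochondrial membrane, had 11 of these reads, and F5, coagulation factor V, had 0. Lamb3, a laminin chain of epithelial basement membrane listed for cholangiocytes, averaged 1.68 ± 0.248 CPM over the controls and 2.64 ± 0.349 over KO. Its fitted rise was 59.0% (edgeR adjusted p = 0.00343, n = 4 per group). With reverse-strand counts the log2 fold change of Lamb3 was 0.60, beside 0.67 with either-strand counts, and it was not called (edgeR adjusted p = 0.0790). The other cholangiocyte gene in the rows, Pigr, which carries IgA into bile, had 0 reads. The groups did not overlap in Dpt, Aox1 and Lamb3, which holds for 31.4% of all 420 genes.

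With the 3 mesenchymal genes, 6 of 6 further genes tested were called, 1 higher and 5 lower in KO, beside 37.6% of all genes. Col5a2 fell by 12.4% (edgeR adjusted p = 2.56e-08). Col3a1 fell by 9.52% (edgeR adjusted p = 2.04e-05), and Prrx1 fell by 19.2% (edgeR adjusted p = 4.30e-04). The summed level of these 3 genes was 1167 to 1218 CPM per library in the controls and 1047 to 1065 CPM in KO. Aox1, Dpt and both collagen genes were known to differ in these libraries when the lists were drawn up, so the count is no support for a direction. The median log2 fold change over all 420 genes was 0.0034, against 0.050 and 0.22 for the 2 members tested.

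**Figure D4:**
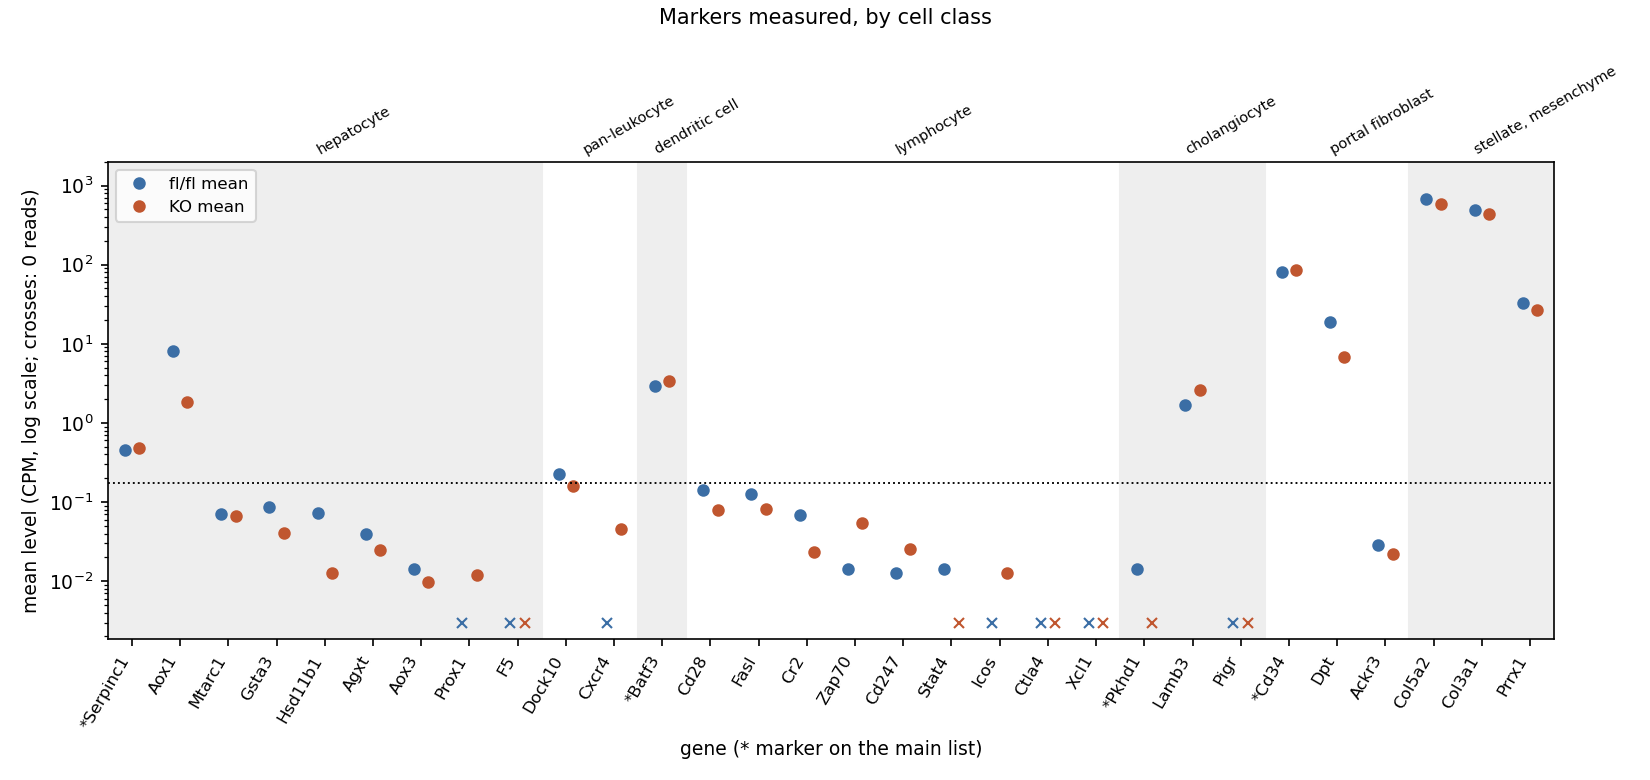
Mean levels of the 30 marker genes analysed, in CPM on a log axis (vertical), by gene and cell class (horizontal), in fl/fl and KO; crosses are means of 0, an asterisk marks the 4 genes of the main list, and the dotted line is the highest level that 0 reads allow in 1 library (0.173 CPM). Of the genes of other cell types, Cd34, Dpt, Aox1, Batf3, Lamb3 and Serpinc1 lie above the line in both groups.

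Replicate 4 of the controls differed from the rest of its group over all genes (chi-square per degree of freedom 3.37 to 3.47, and 1.39 to 1.86 among the others). For the members this library held the highest control value of Batf3 (3.43 CPM), the lowest of Serpinc1 (0.343 CPM) and a Cd34 value within those of control replicates 2 and 3. Of the controls it was also the nearest to KO in all 6 further genes called, with 5.78 CPM of Aox1, 14.7 of Dpt, 2.00 of Lamb3, 30.6 of Prrx1, 470.4 of Col3a1 and 665.7 of Col5a2. In what share of all called genes it was the nearest was not counted, so this cannot be read as particular to the markers. Without it 191 genes were called in place of 158, and the log2 fold change of Batf3 was 0.30 (edgeR adjusted p = 0.119) and that of Cd34 0.039 (adjusted p = 0.338). No batch or date is recorded in the labels, and a batch that follows the genotypes cannot be told apart from them.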

How the data were processed

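For each of the 8 libraries the authors deposited raw counts by gene as STAR writes them: summary rows, then 1 count for either strand, 1 for the forward and 1 for the reverse strand. Named in the submitters' processing notes are fastp, STAR 2.7.10a, DESeq2 1.38.0 and both GRCm38 and GRCm39. Since the annotation release was not stated, no coordinates are printed. An incomplete last line was left out of 7 tables, and the 1933 shared gene rows were used, 1830 with a symbol in GENCODE M21 (GRCm38), which also gave exon lengths and overlaps. Listed symbols that M21 lacks were matched through RefSeq synonyms.

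The library total was a lower limit of gene-assigned reads, derived from the summary rows (from the no-feature reads of the forward plus reverse columns, less those of the either-strand column taken 2 times, less the ambiguous reads of the strand columns). The upper limit was 2.51% to 2.65% higher. Either-strand counts were analysed with edgeR 4.0.16 in R 4.3.3 (filterByExpr, TMM, quasi-likelihood F test, Benjamini-Hochberg over 420 genes, threshold 0.05). SEs came from the F statistic, and percent changes between genotypes came from the fitted log2 fold changes, not from the group means. Members with at least 10 reads below the filter had an exact permutation test (Python 3.11.15, scipy 1.17.1). Alternatives were DESeq2 1.42.0, upper-quartile scaling, library totals alone, the upper limit of the total, other filters, a threshold of 0.01, each strand column, a replicate block and leaving out each library. The edgeR fit was tested on simulated data. No pair of libraries agreed within sampling noise.

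Libraries were grouped by title. In 3 KO samples the genotype field has another digit in the gene name. The members and lists were chosen with earlier results of these data known. The genes named are each member in the rows, and of the further markers those past the threshold, the 2 highest in each class and those with 0 reads. A listed marker is not reported here.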

Additional observations from a re-analysis of the deposited data

Results flagged for a closer look

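Among the 4 libraries of a genotype, an extreme value was singled out when the gap to its neighbour took up more of the range than Dixon's 95% critical value. By chance about 1 in 20 groups is singled out, and 18 were tested. Cd34 stood at 86.24 CPM in fl/fl replicate 1 while the rest of the controls had 79.38 to 80.53 (gap divided by range, 0.832). Aox1 stood at 5.781 CPM in fl/fl replicate 4 against 8.788 to 9.365 (0.839). Prrx1 stood at 30.44 CPM in KO replicate 3 against 25.05 to 25.8 in the other KO libraries (0.86).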

How the results depend on the processing

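Both the summed strand columns and the shared-row totals were chosen after seeing the data. Instead of 0 called members there was 1 with upper-quartile scaling (Cd34, log2 fold change 0.10, adjusted p = 0.0213), with reverse-strand counts (Serpinc1) and with the summed strand columns (Serpinc1), and the count was 0 in each run that left out 1 library. The mean of Serpinc1 was 5.75, 5.64 and 11.4 CPM in fl/fl, and 5.14, 4.53 and 9.67 CPM in KO, with forward, reverse and summed columns; the columns hold the reads shared with Zbtb37. Its difference, KO minus fl/fl, was then -0.605, -1.12 and -1.72 CPM (exact permutation p = 0.429, 0.0286 and 0.0286). It ran from -0.0303 to 0.0950 CPM when 1 library was left out, and was -0.0108 without fl/fl replicate 4 and -0.0303 without KO replicate 2.

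Leaving out 1 library gave log2 fold changes of 0.037 to 0.079 for Cd34 and 0.16 to 0.30 for Batf3, Serpinc1 means of 0.404 to 0.498 CPM in fl/fl and 0.429 to 0.555 CPM in KO, a Pkhd1 mean of 0 to 0.0193 CPM in fl/fl, and 132 to 191 called genes. Batf3 could not be fitted at a mean of at least 5 CPM. With the replicate block the log2 fold changes were 0.051 for Cd34 and 0.22 for Batf3, 150 genes were called, and no call of a member changed. Same-numbered libraries did not deviate together (correlations -0.164 to 0.130). So few correlations cannot show whether the numbers mark pairs, which the labels do not state. Lamb3 lost its call with reverse-strand counts (adjusted p = 0.0790, over a range of 4.41e-04 to 0.0790). Of the 20 alternatives for Cd34, 19 left it uncalled, as did all 19 for Batf3. Depth limits Serpinc1 and Pkhd1, whose either-strand counts are 77 and 1.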
